A study of Mus musculus with 12 samples.

Results

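The cytosolic ribosomal proteins are the structural proteins of the large (60S) and small (40S) ribosomal subunits that translate nuclear-encoded mRNAs. Members were taken by symbol: every protein-coding gene named Rpl or Rps with a number, plus Rplp0, Rplp1, Rplp2 and Rpsa, without the Rps6k kinase genes, Rps19bp1 and symbols ending in -ps. Of 49585 genes in the count files, 102 protein-coding symbols matched the pattern, 17 were left out by the rule and 85 remained, 52 of the 60S and 33 of the 40S subunit. The set holds 8 variant paralogs, which are close copies of a core member, and 82 members passed the filter on low counts.

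RNA from whole mouse pancreas was sequenced in 12 animals, 3 in each of 4 groups. Wild-type animals were C57Bl6 controls, and the others carried the label Atf3-/- on a congenic C57Bl6 background. In each strain 3 animals received saline and 3 received cerulein, a cholecystokinin-like peptide that overstimulates acinar cells. Each was injected 4 times over 4 h, cerulein at 50 ug/kg, and tissue was taken at 4 h from mice of 2 to 4 months. Atf3 encodes a stress-induced transcription factor. The libraries were W1, K5 and R3 (wild type, saline), O1, O3 and N3 (wild type, cerulein), S1, K4 and Q1 (Atf3-/-, saline), and C2, C3 and L4 (Atf3-/-, cerulein).

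A ribosome needs its core proteins in matched amounts, and the mRNAs for them are among the most even and abundant in animal cells. Most begin with a 5′ terminal oligopyrimidine tract, a cytosine followed by a run of pyrimidines, through which mTORC1 and Larp1 control how much of the mRNA is translated. Pancreatic acinar cells carry dense rough endoplasmic reticulum and make more protein per cell than most other cells, so the pancreas is a tissue of high ribosome content.

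Library totals ran from 18292997 to 32158629 counts. Atf3 was lower than in wild type in 1 Atf3-/- library only. Its TMM-scaled CPM (counts per unit of library size, CPM, scaled by the trimmed mean of M values) were 775, 599 and 393 in wild-type cerulein libraries, 1374 in C2, 1635 in L4 and 20.7 in C3. In saline they were 3.23, 1.13 and 5.27 in W1, K5 and R3 and 23.1, 7.43 and 13.5 in S1, K4 and Q1. The animals are therefore called labelled knockouts here, and which exons the allele removes is not given in the sources used here. C3 stood apart from C2 and L4. The 50 genes most abundant over all libraries took 79.0% of its counts, against 68.8% in C2 and 66.1% in L4 and 76.9 to 81.9% in the labelled-knockout saline libraries. Results that include C3 are given with and without it. Acinar markers were high in every library (8 of 8 found, summed CPM of 350152 to 442593 over all counts) and were lower in the 5 cerulein libraries other than C3 (350152 to 361475) than in the 6 saline libraries (407679 to 442593). Lymphocyte markers (9 of 9 found) ranged from 5.07 in C3 to 783 in N3, with 334 in K4. Adipocyte markers (6 of 6 found) were 499 in N3 and 519 in K4 against 27.1 to 140 elsewhere. Islet markers (6 of 6 found) were 13680 in L4 against 416 to 3964 elsewhere. Duct markers (6 of 6 found) were 279 to 329 in wild-type cerulein against 150 to 194 in wild-type saline libraries, and 192 in C3, 235 in C2 and 251 in L4 against 156 to 168 in labelled-knockout saline libraries. The part of these cells in the results was not tested.

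The start of the mRNA is the element these genes are best known for, so the first bases of 10 members are printed as examples: 6 core members chosen because a tract begins at the annotated base, the core members Rpl11 and Rpl12, and the variant paralogs Rpl7l1 and Rpl22l1. RefSeq start sites on GRCm38.p6 were matched for 65 of the 85 members. Each line gives 10 bases before the annotated start and the first 20 bases from it, 5′ to 3′ on the gene's strand, and capitals mark a tract of at least 5 pyrimidines that begins with C at the annotated start base.
Rps6: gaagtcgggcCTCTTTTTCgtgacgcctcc
Rps15a: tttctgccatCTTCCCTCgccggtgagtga
Rps10: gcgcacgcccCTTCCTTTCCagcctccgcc
Rps21: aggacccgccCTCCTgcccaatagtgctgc
Rpl35a: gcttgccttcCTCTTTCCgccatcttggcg
Rplp2: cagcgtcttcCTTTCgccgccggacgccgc
Rpl11: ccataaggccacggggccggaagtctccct
Rpl12: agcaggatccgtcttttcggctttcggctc
Rpl7l1: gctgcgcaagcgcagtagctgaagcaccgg
Rpl22l1: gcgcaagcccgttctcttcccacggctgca
The sites are chr4:86857348-86857377 on the minus strand (Rps6), chr7:118116128-118116157 minus (Rps15a), chr17:27635225-27635254 minus (Rps10), chr2:180257369-180257398 plus (Rps21), chr16:33056472-33056501 plus (Rpl35a), chr7:141447641-141447670 plus (Rplp2), chr4:136053374-136053403 minus (Rpl11), chr2:32961702-32961731 plus (Rpl12), chr17:46782637-46782666 minus (Rpl7l1) and chr3:28805498-28805527 plus (Rpl22l1). The table holds further annotated starts for Rpl35a and Rps21, which have no tract at the exact base. Most matched members, core or variant, have none there either, while the variant Rps27rt has one of 6 bases. Of the 65 matched members, 14 (21.5%) had a tract at exactly an annotated start base against 3.01% of the 27025 genes in the table, and 40 (61.5%) had one within 10 bases of it against 34.4%. In the window of 300 bases around the start, read on both strands, CCGGAAG (the ETS-type motif) was present in 40% of members and 9.93% of all genes. The YY1-type motif AAGATGGC was present in 9.23% of members and 3.19% of genes. The GC box GGGCGG was found in 61.5% and 38.2% and the TATA box TATAAA, read by the basal transcription machinery, in 10.8% and 15.7%. These shares describe letters in the window and no binding was measured.

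Levels differed widely between members although their proteins are used in matched amounts. Levels per kilobase rest on the shortest annotated principal transcript of each gene, from 271 bases (Rps28) to 3706 (Rps20). Whether these are the expressed lengths was not tested, so the order below holds for these lengths only. Per kilobase of transcript, the highest mean TMM-scaled CPM over the 12 libraries belonged to Rplp1 (1077, an acidic protein of the P stalk, which recruits elongation factors), Rpl41 (1053, the smallest ribosomal protein) and Rpl32 (1040, of the 60S subunit). Rpl10 (717), which completes the tRNA-facing side of the 60S subunit, Rps15 (597), whose tail reaches the decoding centre, and Rps18 (596), in the head of the 40S subunit, followed. The lowest of the tested members were Rpl24 at 1.16, Rpl13a at 10.8, Rps27rt, a retrogene copy of Rps27, at 11.7 and Rpl7l1 at 26.3 CPM per kilobase.

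The low levels of 2 of these are uncertain as measurements. Rpl24, which bridges the subunits, had 218 counts in all 12 libraries together. In the GENCODE M21 annotation, 47.0% of its exon bases lie under the same-strand transcript Gm28037, which was listed at 0 in every library. Rpl13a, known also as an interferon-regulated translational silencer, had 3248 counts, and 35.4% of its exon bases lie under Gm45713, Mir5121 and Snord33, all listed at 0. How the counting treated reads that fall in 2 genes is not given in the sources used here.

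Copies elsewhere in the genome touch nearly every member. The median member shared 55.4% of its 50-base windows with transcripts of other genes, and 50 of 85 shared more than 50%. Rpl3l and Rpl39l were among those that shared none. At least 1 annotated pseudogene shared a window with 82 of 85 members, with a median of 8 and a maximum of 120 for Rpl7a. Across the 82 tested members, the level per kilobase and the shared fraction had a Spearman correlation of 0.07. Genes with Rpl or Rps symbols of the same pattern that are not annotated as protein-coding numbered 270, of which 167 had a count. Together they took 0.0624% ± 0.0052 (SD, n = 3) of wild-type saline counts and 0.0741% ± 0.0037 after cerulein. Pseudogenes with other names, such as Gm7536, are not in that share. Counts for members with near-identical copies are thus uncertain by an amount these files do not give.

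The 3 members below the filter are paralogs known from other tissues. Rpl10l, a testis paralog of Rpl10, had 0 counts in the 12 libraries, which allows up to 0.0107 CPM over all 12 together, for counting error only. Rpl3l, the striated-muscle paralog of Rpl3, and Rpl39l, the testis paralog of Rpl39, had 1 count each. Skeletal muscle markers were also near 0 (4 of 4 found, summed CPM of 0.329 to 2.06, Myh4 at 0 in all).

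After 4 h of cerulein in wild type, the ribosomal protein mRNAs lay close to their saline level relative to the other genes. With edgeR's quasi-likelihood test and Benjamini-Hochberg adjustment over 14329 genes, 0 of 82 members were called higher and 0 lower, while 30.7% of all genes tested were called. At an unadjusted p under 0.05 there was 1 member (Rpl7l1). DESeq2 and limma-voom each called 0 members, while calling 34.8% and 28.0% of genes, and also had 1 at that unadjusted level. Genes called by a test lie under that level too, so at least 30.7%, 34.8% and 28.0% of genes reach it. The median log2 fold change of members was -0.01, with a middle 50% from -0.08 to 0.06, against a median of 0.05 and a middle 50% from -0.50 to 0.69 for all genes. Leaving out 1 library moved the members' median to between -0.12 (without O3) and 0.13 (without N3). None of the 82 members moved by more than 2-fold, as 27.6% of all genes did. All genes tested were not matched to the members for abundance, so the part of abundance in this contrast was not tested. On the TMM scale the data bound the changes. For 80 of 82 members the 95% interval lay within 2-fold in either direction and for 47 it lay within 1.5-fold, at a median SE of 0.21. These intervals do not cover the choice of scaling, and the members' median was 0.26 on plain library totals. In bulk tissue, fewer cells of a type and less RNA per cell cannot be told apart.

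**Figure D1:**
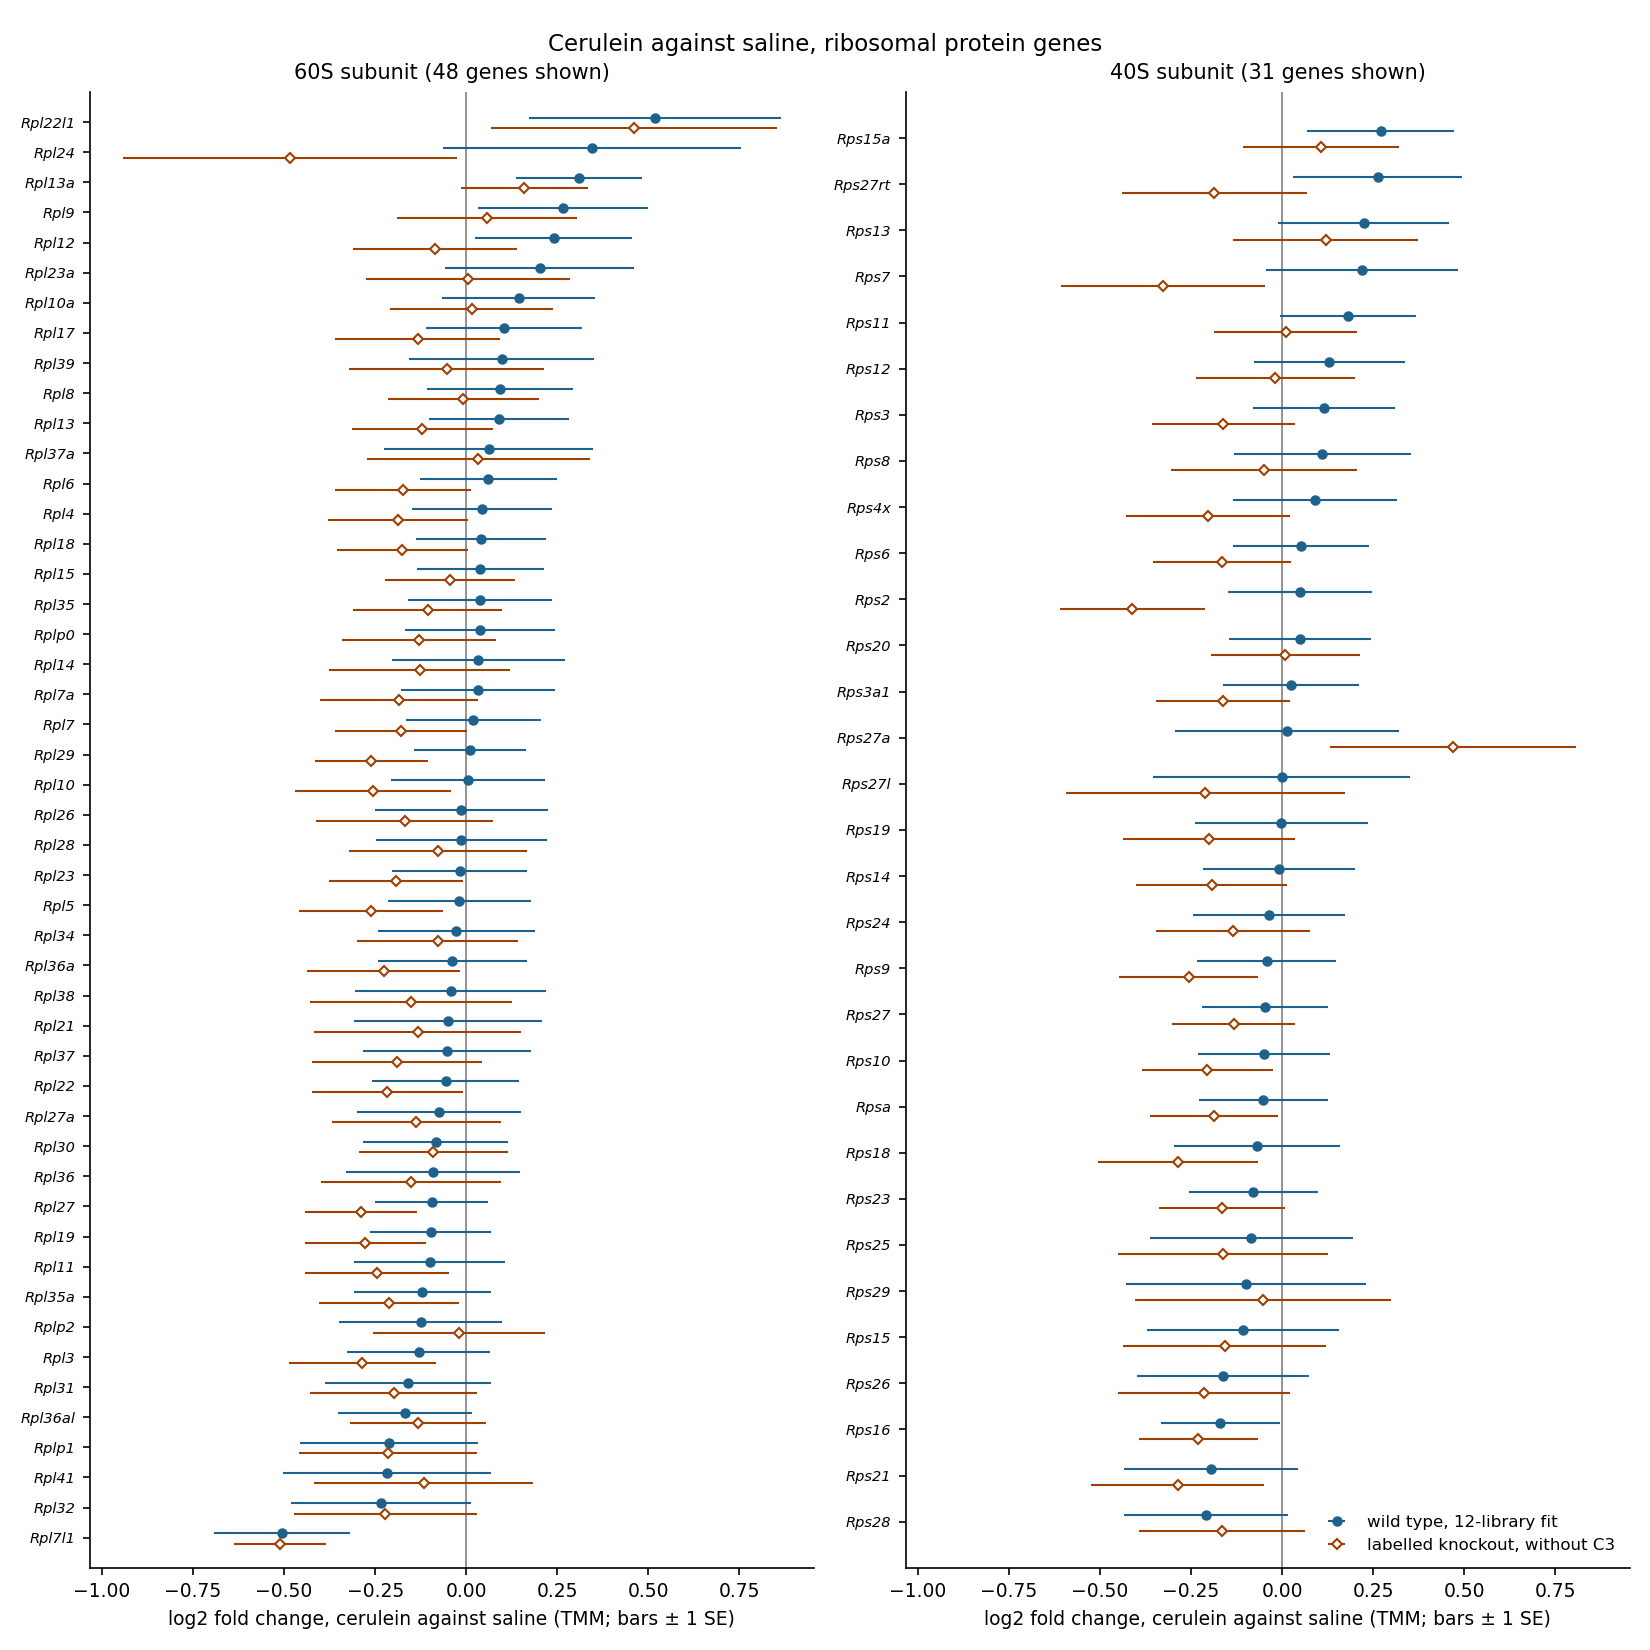
Log2 fold change of the tested members, except 3 not reported by name, cerulein against saline, on the TMM scale, for the 60S (left) and 40S (right) subunit; filled circles are wild type from the fit of 12 libraries, open diamonds are labelled knockout without C3, and bars are ± 1 SE. Most members sit within 0.25 of zero, with Rpl7l1 at -0.51 and Rpl22l1 at 0.52 at the ends in wild type.

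Members with the best-known roles showed the same flat pattern in wild type. Rplp0, the scaffold of the P stalk, measured 762, 636 and 685 TMM-scaled CPM in saline libraries W1, K5 and R3 and 708, 809 and 622 in cerulein libraries O1, O3 and N3. The ranges of the 2 groups overlapped, and the log2 difference was 0.04 ± 0.21 (SE). Its stalk partners had log2 differences of -0.21 (Rplp1), -0.13 (Rplp2) and 0.24 (Rpl12, at the stalk base).

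Rpl5 and Rpl11 form the 5S particle, which binds Mdm2 when it is not built into ribosomes, as Rpl23 also can. Rpl5 measured 505, 469 and 488 in saline and 506, 543 and 394 in cerulein libraries, in the same library order, a log2 difference of -0.02 ± 0.20. Rpl11 measured 318, 244 and 267 against 256, 301 and 216, a difference of -0.10 ± 0.21. Rpl23 differed by -0.02 ± 0.18, so all 3 members of this group lay within their spread. Around the exit tunnel, Rpl4 (0.04), Rpl17 (0.10) and Rpl39 (0.10) line its wall and Rpl19 (-0.10), Rpl22 (-0.06), Rpl23a (0.20), Rpl26 (-0.01), Rpl31 (-0.16) and Rpl35 (0.04) ring its mouth, where the signal recognition particle and the translocon dock. None of these 9 log2 differences passed the test.

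In the small subunit, Rps6 is the substrate of S6 kinase downstream of mTORC1. It measured 402, 411 and 426 in saline libraries and 428, 473 and 383 in cerulein libraries, a log2 difference of 0.05 ± 0.19, and its groups overlapped. Of the proteins that line the mRNA channel and the decoding site, Rps2 differed by 0.05, Rps3 by 0.11, Rps23 by -0.08, Rps15 by -0.11, Rps26 by -0.16, Rps28 by -0.21 and Rpsa by -0.05 on the log2 scale. Rps27a, which is made as a fusion with ubiquitin, differed by 0.01 ± 0.31, with saline values of 194, 191 and 151 and cerulein values of 238, 191 and 112. Of the genes mutated in Diamond-Blackfan anaemia, an inherited red-cell failure, Rps7 differed by 0.22, Rps19 by 0.00, Rps24 by -0.04, Rps10 by -0.05 and Rpl35a by -0.12, and none of these 5 passed the test.

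The members with the lowest log2 fold change in wild type after Rpl7l1 were Rpl32 (-0.23 ± 0.25), Rpl41 (-0.22 ± 0.29), Rplp1 (-0.21 ± 0.24), Rps28 (-0.21 ± 0.23), Rps21 (-0.20 ± 0.24) and Rps16 (-0.17 ± 0.16), whose tail touches the P-site tRNA. Each SE is close to the difference itself or larger. Rpl32 measured 707, 501 and 557 in saline and 510, 605 and 385 in cerulein libraries. Rpl41 measured 617, 360 and 516 against 476, 500 and 309. In both genes W1 was the highest and N3 the low extreme, and the groups overlapped.

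At the other end after Rpl22l1 were Rpl24 (0.35 ± 0.41), Rpl13a (0.31 ± 0.17), Rps15a (0.27 ± 0.20), Rpl9 (0.27 ± 0.23), Rps27rt (0.26 ± 0.23), Rpl12 (0.24 ± 0.22) and Rps13 (0.22 ± 0.23), a protein of a bridge between the subunits. Rps15a, a 40S protein that contacts the central rRNA domain, measured 162, 122 and 143 in saline and 175, 198 and 141 in cerulein libraries, with an adjusted p of 0.334 by edgeR. Rpl9, of the 60S side near the stalk base, measured 202, 147 and 171 against 223, 250 and 152, with an adjusted p of 0.412. In both genes O1 and O3 exceeded every saline library and N3 did not. Rpl24 rested on the fewest counts, with 0.776, 0.667 and 0.787 CPM against 1.25, 1.06 and 0.530.

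Rpl7l1, a paralog of Rpl7 found in precursors of the 60S subunit, was the member that stood furthest below. It measured 42.4, 36.9 and 39.1 TMM-scaled CPM in wild-type saline libraries and 26.9, 29.0 and 27.4 in wild-type cerulein libraries. All 3 cerulein libraries were below all 3 saline libraries, as for 24.9% of all genes. It was the only one of 82 members whose groups did not overlap, and 0 members lay entirely above, against 27.5% of genes. The log2 fold change was -0.51 ± 0.19, adjusted p = 0.0595 by edgeR's quasi-likelihood test. In the fit without C3, a labelled-knockout library that widens the shared estimate of spread, the same difference was -0.51 ± 0.11 with an adjusted p of 0.00475, and 37.9% of genes were called. In labelled knockout Rpl7l1 measured 39.2, 35.4 and 40.4 in S1, K4 and Q1, 26.5 in C2, 27.2 in L4 and 42.9 in C3. C3 lay with the saline libraries there. The log2 fold change was -0.25 ± 0.19 (adjusted p = 0.411) with C3 and -0.51 ± 0.13 (adjusted p = 0.0116) without it. Without C3 it also fell in both strains by DESeq2 (adjusted p of 0.000252 in wild type and 0.000604 in labelled knockout) and by limma-voom (0.00497 and 0.0111). It stayed below 0 under every scaling tried. Without C3 it was not past the threshold on plain library totals in either strain (adjusted p of 0.200 and 0.326), nor, in labelled knockout, with no low-count filter (0.0503) or scaled to the summed core members (0.142).

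Its core paralog Rpl7, which sits in the mature 60S subunit, did not share the pattern, with 379, 328 and 359 against 362, 407 and 311 in wild type (log2 difference 0.02 ± 0.19). Counts of Rpl7l1 per count of Rpl7 were 0.111 ± 0.0019 (SD, n = 3) in wild-type saline and 0.0779 ± 0.0090 in wild-type cerulein libraries. In labelled knockout they were 0.106 ± 0.0072 in saline and 0.0937 ± 0.0176 in cerulein libraries. C3 was at 0.113, and the cerulein mean without it was 0.0841. The ratio needs no scaling between libraries, and 12.2% of the windows of Rpl7l1 are shared with other genes.

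Rpl22l1, which can take the place of Rpl22 in the 60S subunit, lay furthest above but with a wide spread. It measured 57.7, 30.3 and 47.2 in wild-type saline and 70.8, 87.6 and 35.3 in wild-type cerulein libraries, and in labelled knockout 50.2, 31.8 and 39.7 against 68.5 (C2), 43.0 (L4) and 60.5 (C3). N3 and L4 overlapped the saline libraries. The log2 fold changes were 0.52 ± 0.35 (adjusted p = 0.278) in wild type and 0.50 ± 0.35 (adjusted p = 0.384) in labelled knockout, or 0.46 ± 0.39 without C3, none past the threshold. Per count of Rpl22, Rpl22l1 gave 0.509 ± 0.095 and 0.746 ± 0.184 (SD, n = 3) in wild type and 0.481 ± 0.059 and 0.738 ± 0.107 in labelled knockout.

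The other pairs moved less. Rps27l, a p53-responsive paralog of Rps27, gave 0.504 ± 0.158 counts per Rps27 count in wild-type saline and 0.516 ± 0.105 in cerulein libraries. Rpl36al gave 0.700 ± 0.041 and 0.646 ± 0.042 per count of Rpl36a, the gene it was copied from. Rps27rt gave 0.0364 ± 0.0039 and 0.0453 ± 0.0024 per Rps27 count, but 91.1% of its windows are shared with other genes.

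**Figure D2:**
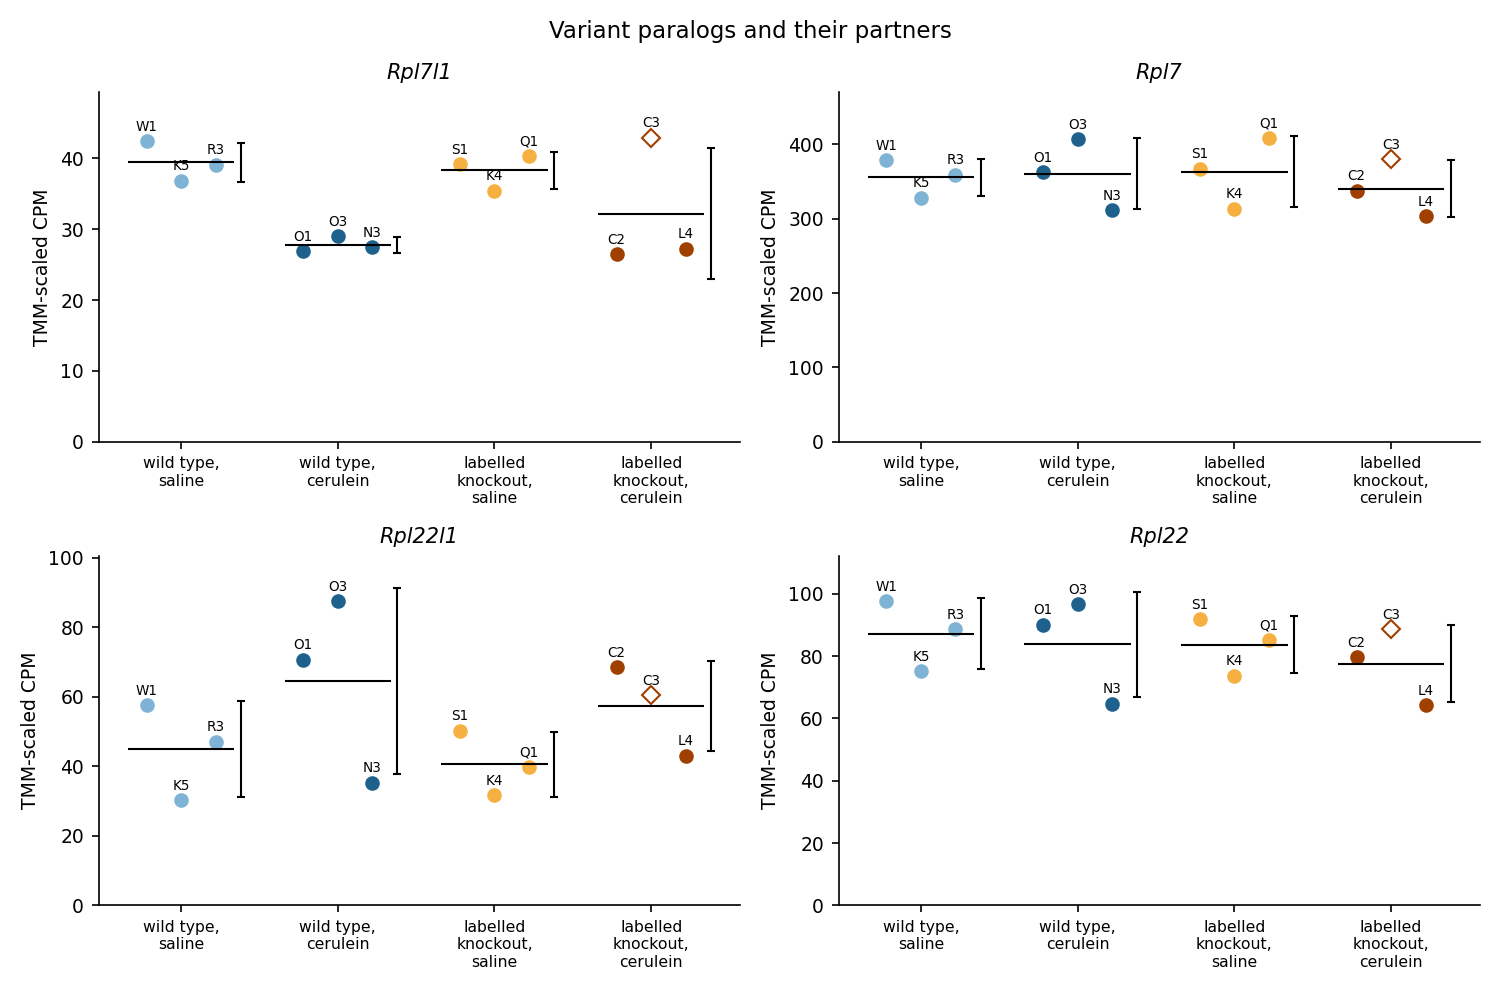
TMM-scaled CPM of Rpl7l1, Rpl7, Rpl22l1 and Rpl22 in each library by group; lines are group means, bars ± 1 SD (n = 3) and the open diamond is C3, which is included in the mean. Rpl7l1 is between 26.5 and 29.0 in the 5 cerulein libraries other than C3 and between 35.4 and 42.9 in the rest.

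Whether the set as a whole is called flat or higher depends on what it is measured against. As a share of all counts, the members took 1.90, 1.71 and 1.99% in wild-type saline libraries (mean 1.87% ± 0.14, SD, n = 3) and 2.30, 2.37 and 2.08% in wild-type cerulein libraries (2.25% ± 0.15). All 3 cerulein libraries were above all 3 saline libraries. In labelled knockout the shares were 1.91, 1.82 and 1.74% in saline (1.82% ± 0.08) and 2.12% (C2), 1.97% (L4) and 1.96% (C3) after cerulein (2.02% ± 0.09, or 2.05% without C3), again without overlap.

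The 50 most abundant genes, mostly digestive enzymes and other secreted acinar proteins, took 79.4% ± 1.1 of counts in wild-type saline and 67.7% ± 1.0 in wild-type cerulein libraries. With those genes set aside, the direction turned: members took 9.07% ± 0.61 of the remaining counts in wild-type saline and 6.96% ± 0.66 in wild-type cerulein libraries. In labelled knockout they took 8.90% ± 0.91 and 7.32% ± 1.80, or 6.31% without C3, whose own value was 9.32%. On the TMM scale, which centres most genes, summed member CPM was 20286 ± 2237 in wild-type saline and 20136 ± 3512 in wild-type cerulein libraries, and 20130 ± 2827 and 19214 ± 2526 in labelled knockout (18055 without C3).

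**Figure D3:**
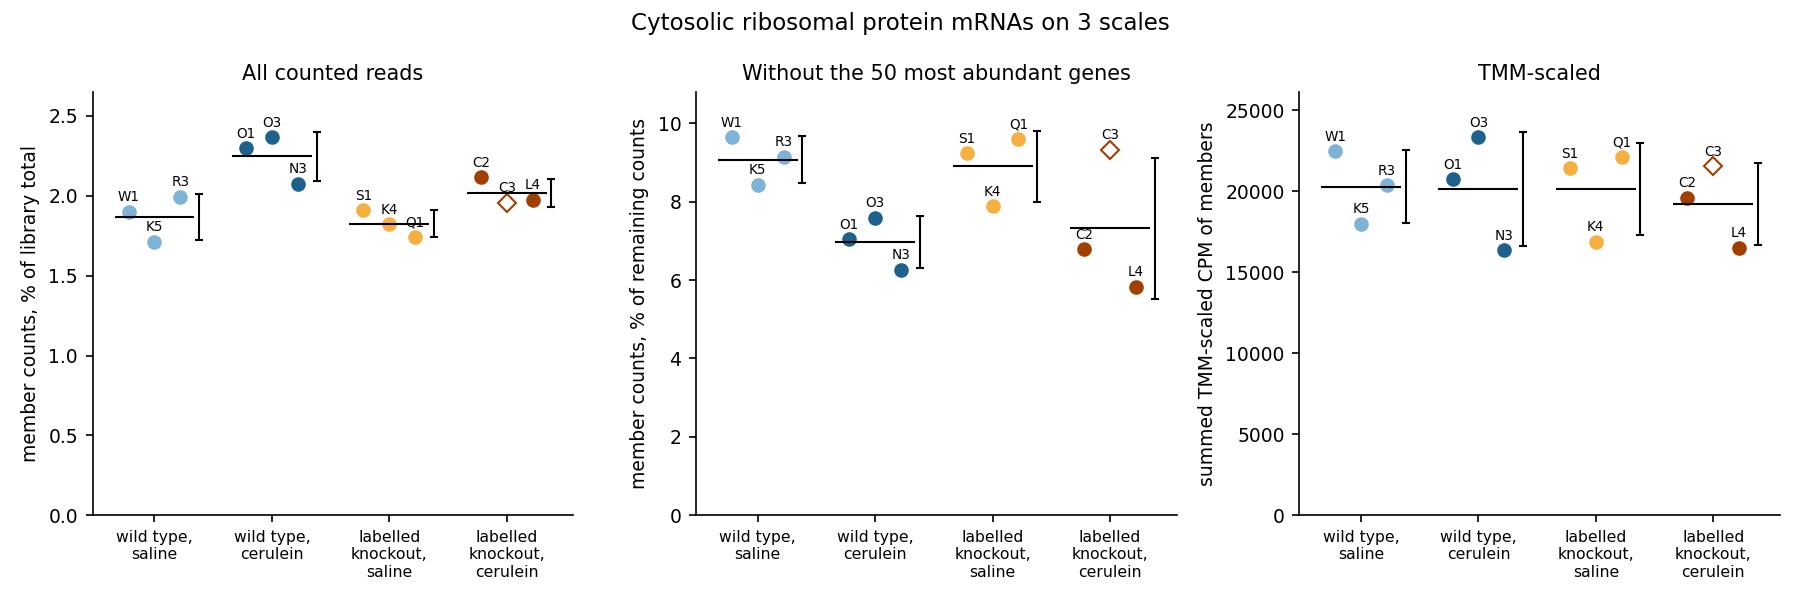
Members' counts as a percentage of the library total (left), as a percentage of counts without the 50 most abundant genes (middle) and as summed TMM-scaled CPM (right) in each library; lines are means, bars ± 1 SD (n = 3), and the open diamond is C3, included in the mean. In wild type, cerulein libraries are higher on the left, lower in the middle and overlap saline on the right.

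The same shift is seen gene by gene. With library totals as the only scaling, the median log2 fold change in wild type became 0.26 for members and 0.34 for all genes, and 81 of 82 members were above 0. Then 42 of 82 members had every cerulein library above every saline library, against 37.9% of genes. edgeR called 4 members higher and 0 lower on that scale, against 22.3% of genes higher and 6.16% lower (28.5% in all). They were Rpl12 (0.51, adjusted p = 0.031), Rps15a (0.55, 0.0325), Rpl13a (0.60, 0.0382) and Rpl9 (0.54, 0.0428). The 4 lie among the 8 highest on the TMM scale too, and without C3 21 members were called higher and 0 lower, against 27.5% and 8.1% of genes (35.6% in all). The members' median minus that of all genes was -0.06 on the TMM scale and -0.08 on library totals, so their place among the other genes moved little. A further scaling set each library's size to its summed core members, so that each member was read against its own set. It called 0 members in wild type, against 24.2% of genes. Without C3 it called Rpl7l1 lower in wild type (-0.47 ± 0.14, adjusted p = 0.0293), where 32.3% of genes were called, and 0 members in labelled knockout, where Rpl7l1 was at -0.35 ± 0.16 (adjusted p = 0.142) and 26.2% of genes were called.

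**Figure D4:**
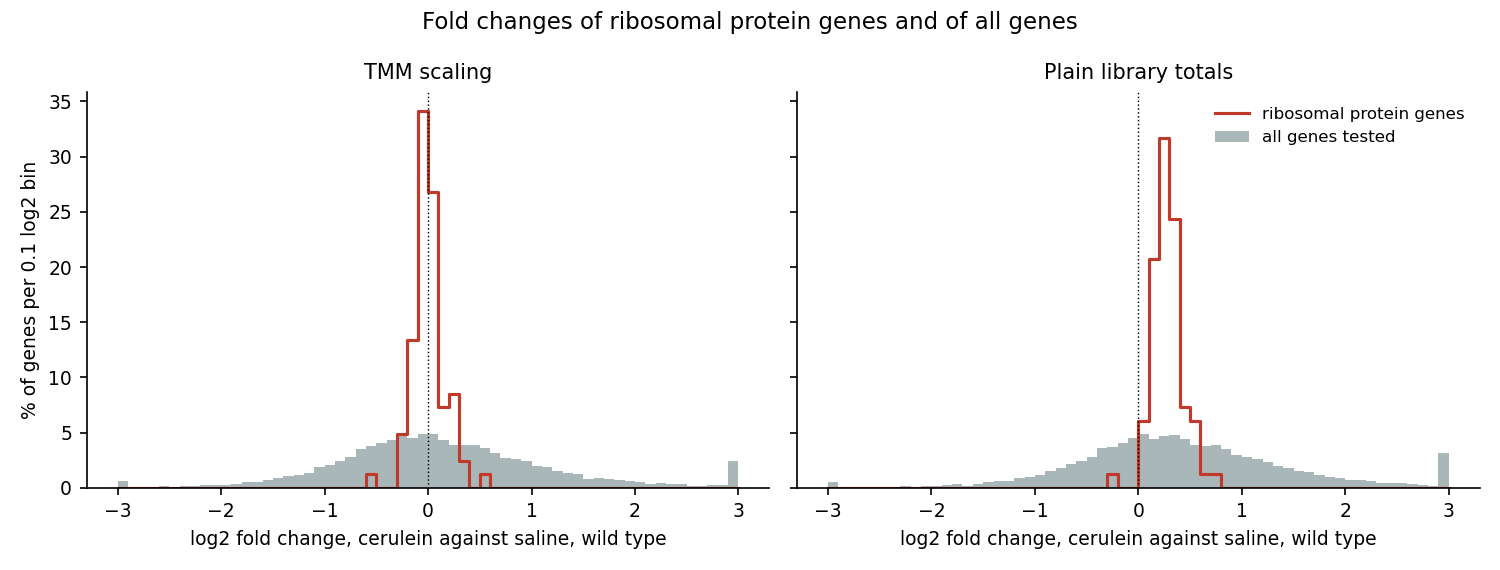
Percentage of genes per bin of 0.1 in log2 fold change, wild-type cerulein against saline, for all genes tested (grey bars, genes beyond 3 gathered in the end bins) and for the 82 members (red line), with TMM scaling (left) and plain library totals (right). The members form a narrow peak near -0.01 on the left and 0.26 on the right, inside a much wider distribution of all genes, which were not matched to the members for abundance.

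The balance between the 2 subunits differed little between groups. Counts of 60S members per count of 40S members were 1.43, 1.43 and 1.40 in wild-type saline (1.42 ± 0.017, SD, n = 3), 1.38, 1.39 and 1.40 in wild-type cerulein (1.39 ± 0.011), 1.42 ± 0.032 in labelled-knockout saline and 1.41 ± 0.011 in labelled-knockout cerulein libraries. By these summed counts every wild-type cerulein library was below every wild-type saline library, though only just, with R3 at 1.403 and N3 at 1.402 as neighbours. By the mean log2 CPM of members without variant paralogs, the groups overlapped. That ratio was 0.752, 0.737 and 0.731 in W1, K5 and R3 and 0.738, 0.733 and 0.739 in O1, O3 and N3. Median log2 fold changes in wild type were -0.01 for the 49 tested 60S members and 0.00 for the 33 of the 40S.

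In labelled knockout, cerulein against saline gave 0 of 82 members called in either direction by edgeR, with 0 at an unadjusted p under 0.05. edgeR and limma-voom called 0.0% of all genes here, so those counts say little about the members. DESeq2 called 9.3% of genes and 0 members. The median log2 fold change was -0.05, and 58 of 82 members were below 0. The median ranged from -0.20 without K4 to 0.05 without L4. Without C3, 29.2% of genes were called and 1 member was, Rpl7l1, lower as given above. The members' median was then -0.16 with 71 of 82 below 0, and that of all genes was 0.00. On library totals the signs turned for most members, with a median of 0.15 and 73 of 82 above 0, or 0.15 and 78 above 0 without C3. edgeR then called 0 members with C3 and 1 without it (Rpl13a, higher), against 26.6% of genes higher and 4.51% lower (31.1% in all) without C3.

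On the TMM scale few members' libraries separated in labelled knockout. With C3, only Rps16 had every cerulein library below every saline library on the TMM scale (6.35% of genes) and 0 members were above (9.41%). Without C3, 8 members were below, against 23.7% of genes, among them Rpl5, Rpl7l1, Rpl19, Rpl27, Rpl29, Rps2 and Rps16. Rpl13a alone was above, against 29.3%. Of these, Rps2, at the entry of the mRNA channel, measured 252, 237 and 325 in saline, 198 in C2, 210 in L4 and 249 in C3. Its log2 fold change was -0.31 with C3 and -0.41 ± 0.20 (adjusted p = 0.147) without it. On library totals 20 of 82 members had every cerulein library above every saline library and 0 below, against 11.6% and 2.54% of genes. Without C3, 33 lay above and 0 below, against 38.8% and 11.6% of genes.

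Rps27a had the highest log2 fold change of any member in labelled knockout but did not pass the test. It measured 223, 112 and 135 in S1, K4 and Q1 and 241, 193 and 233 in C2, L4 and C3, a log2 fold change of 0.50 ± 0.31 (adjusted p = 0.329) with C3 and 0.47 ± 0.34 (adjusted p = 0.328) without it. S1 overlapped the cerulein libraries. In wild type the same gene differed by 0.01, and the difference between the strains did not pass the test (smallest adjusted p among members 0.813).

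Between strains 0 members were called in saline or after cerulein. In saline, labelled knockout against wild type gave 0 of 82 members called by edgeR (0.0% of all genes). There were 0 at an unadjusted p under 0.05 and 0 by DESeq2 and limma-voom. Each test called 0.0% of all genes here, so the counts say little about the members. Log2 differences ranged from -0.19 to 0.12 with a median of -0.02, and the 95% interval was within 2-fold for all 82 tested members. No member's libraries separated on the TMM scale, against 2.09% of genes above and 2.74% below. On library totals 0 lay above and 1 below, against 1.19% and 2.32% of genes.

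After cerulein, labelled knockout against wild type again gave 0 members called by edgeR and limma-voom (0.0% of genes) and by DESeq2 (0.0768% of genes). By edgeR 0 members had an unadjusted p under 0.05. With so few genes called in all, these counts say little about the members. The median log2 difference was -0.08 with 67 of 82 below 0, and without C3 it was -0.16 with 80 below 0. All-gene medians were 0.01 and 0.00. The sign of the members' median rested on single libraries: it was 0.04 without O3 and 0.02 without L4, and -0.21 without N3. With C3, 0 members separated on the TMM scale (5.47% of genes above, 4.29% below). Without it, 4 lay below, against 6.53% of genes: Rps2, Rps16, Rpl19 and Rpl29. On library totals 23 of 82 members lay below and 0 above, against 5.56% and 4.08% of genes, and without C3 25 lay below and 0 above, against 6.95% and 9.91%. As a share of all counts the labelled-knockout cerulein libraries (1.96 to 2.12%) and the wild-type ones (2.08 to 2.37%) overlapped through C2 and N3. Members move together between replicate libraries, so many small differences of one sign are not many independent observations.

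The difference between the 2 cerulein responses also gave 0 members called by edgeR and limma-voom (0.0% of genes) and by DESeq2 (0.00698% of genes). By edgeR 0 members had an unadjusted p under 0.05. Hardly any gene was called in all, so these counts too say little about the members. The members' median for this difference was -0.06, or -0.15 without C3. It was above 0 without O3 (0.06), L4 (0.04), K5 (0.03) or S1 (0.01) and lowest without N3 (-0.20). Here the intervals were wide: only 4 of 82 members had a 95% interval within 1.5-fold.

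On the TMM scale, variation between replicate animals was mostly a shift of the whole set. The pooled within-group SD of the members' mean log2 CPM was 0.22, close to the median within-group SD of a single member, 0.23. Summed TMM-scaled CPM was lowest in N3 (16368), L4 (16521), K4 (16888) and K5 (18003) and highest in O3 (23319), so each group held a library near the bottom of the range. The size of this shift and the order of the replicates depended on the scaling. TMM factors ran from 0.788 (Q1) to 1.27 (N3). Relative to the group mean, replicates varied less as a share of all counts in each group. In wild-type cerulein libraries the share was 2.25% ± 0.15 (SD, n = 3) and the summed TMM-scaled CPM 20136 ± 3512. In labelled-knockout saline libraries they were 1.82% ± 0.08 and 20130 ± 2827. Q1 was the highest of the labelled-knockout saline libraries by summed TMM-scaled CPM (22087) and the lowest as a share of all counts (1.74%). L4 and C3, at 16521 and 21531, took 1.97 and 1.96% of counts. The 4 group means, 19214 to 20286, lay closer together than the replicates of any 1 group.

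Inside the set, a second pattern ran across the groups. After the library mean was removed, the first component of within-group variation held 59.4% of the variance, and its loadings fell with transcript length (Spearman -0.48 across 82 members) and not with GC content (-0.04). Rps27l, Rpl22l1, Rps29, Rpl37a and Rpl41, with annotated transcripts of 390 to 558 bases, loaded at one end. Rps27rt (374 bases), Rps6 (878 bases), Rps16, Rpl19 and Rpl4 loaded at the other. Members of a set from the same libraries share depth and preparation, so these correlations are descriptions.

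Rps29 and Rps6, both of the 40S subunit, show its size. Rps29 counts per Rps6 count were 0.649, 0.354 and 0.433 in W1, K5 and R3, 0.470, 0.490 and 0.310 in O1, O3 and N3, 0.638, 0.374 and 0.308 in S1, K4 and Q1, and 0.578, 0.634 and 0.340 in C2, C3 and L4. In 3 of the 4 groups the replicates spanned most of the range seen over all 12 libraries. Over larger sets, without the variant paralogs, the 20 shortest tested core members (271 to 526 bases) were set against the 20 longest (975 to 3706 bases). They gave 0.512 to 0.668 counts per count of the longest, lowest in N3 and highest in W1. Transcripts retained in nuclei (Malat1, Neat1, Meg3, Kcnq1ot1 and Xist, 5 of 5 found) also differed between replicates. The sum includes Xist, and the labels give no sex. Summed CPM was 1159, 433 and 981 in W1, K5 and R3, 937, 994 and 567 in O1, O3 and N3, 1165, 495 and 534 in S1, K4 and Q1, and 1569, 1127 and 784 in C2, C3 and L4. In 3 of the 4 groups the library with the lowest sum also had the lowest Rps29 to Rps6 ratio, and in labelled-knockout saline they were K4 and Q1. The part of nuclear RNA, or of sex, in the pattern was not tested.

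**Figure D5:**
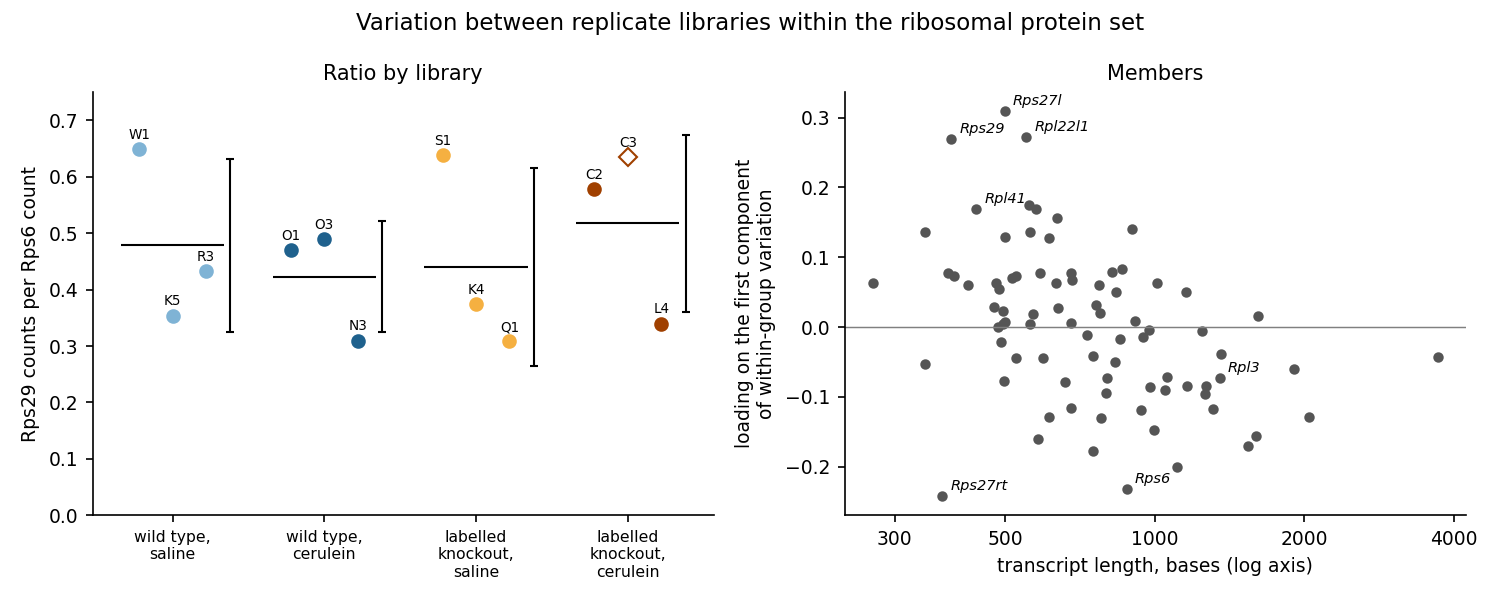
Left, Rps29 counts per Rps6 count in each library, with group means (lines), ± 1 SD (bars, n = 3) and C3 as an open diamond, included in the mean. Right, loading of each of 82 members on the first component of within-group variation against transcript length on a log axis; Rps29 (390 bases) lies high and Rps6 (878 bases) lies low.

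Genes that work on the ribosomal proteins were read as a further list. Of 16 chaperones and importers of ribosomal proteins, 8 rose and 2 fell in wild type after cerulein by edgeR, with a median log2 fold change of 0.79, against 17.9% of all genes called higher and 12.8% lower, and 6 of the 16 did not pass. Grwd1, the chaperone of Rpl3, measured 6.46, 5.34 and 6.45 in saline and 21.4, 22.7 and 17.9 in cerulein libraries (1.76 ± 0.34, adjusted p = 0.00918). Rrs1, which loads the 5S particle (1.42), Ltv1, an assembly factor of the 40S head (1.17), and the importin Tnpo1 (1.08) also rose. Aamp, the chaperone of Rpl10, and Bccip, that of Rpl23, fell by 0.80 each on the log2 scale. Without C3 the same list gave 9 and 2 in wild type, against 21.3% and 16.6% of genes, and 8 and 2 in labelled knockout, against 18.7% and 10.5%. With C3 it gave 0 in labelled knockout, where 0.0% of genes were called. Grwd1 was at 6.33 in C3 against 18.8 in C2 and 20.1 in L4.

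Of 22 further mRNAs known to start with an oligopyrimidine tract, 3 rose and 0 fell in wild type, against 17.9% and 12.8% of genes, with a median of 0.13. On plain library totals 8 rose and 0 fell, against 22.3% and 6.16% of genes, with a median of 0.40. The 3 were Nap1l1 (1.04, also in the list above), Npm1, a nucleolar chaperone (1.03), and Pabpc1, the cytoplasmic poly(A)-binding protein (0.67). Without C3 these 3 also rose in labelled knockout, where 18.7% of genes were called higher. Eef1a1, the elongation factor that delivers aminoacyl-tRNA, was not called (0.27 ± 0.19, adjusted p = 0.298).

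Of 20 regulators of the translation of these mRNAs, 5 rose and 6 fell in wild type, against 17.9% and 12.8% of genes, with a median of -0.21. On plain library totals 5 rose and 5 fell, against 22.3% and 6.16%, with a median of 0.07. Sesn2, a stress-induced inhibitor of mTORC1, measured 3.36, 3.39 and 3.23 in saline and 128, 126 and 75.3 in cerulein libraries (5.05 ± 1.11, adjusted p = 0.0108). Ddit4, another mTORC1 inhibitor (2.21), and Rheb, its activator (1.78), rose. Pdcd4, an inhibitor of the helicase Eif4a that S6 kinase marks for destruction, was lower, with 137, 106 and 126 against 29.0, 27.4 and 22.1 (-2.23 ± 0.57, adjusted p = 0.0162). Inhibitors of translation were thus found among both the risen and the fallen genes. In labelled knockout without C3, 4 rose and 6 fell, against 18.7% and 10.5% of genes.

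The mitochondrial ribosomal proteins, encoded by separate nuclear genes, give a parallel set. Of 77 tested, 2 rose and 17 fell in wild type with TMM scaling, against 17.9% and 12.8% of genes, at a median of -0.17. Without C3 the counts were 2 and 23, against 21.3% and 16.6%. On plain library totals they were 5 and 3, against 22.3% and 6.16%, at a median of 0.11, so the balance of this list rests on the scaling as the members' direction does. In labelled knockout without C3 they were 5 and 15, against 18.7% and 10.5%. Mrps35 (-1.40), Mrpl18 (-1.16), Mrpl34 (-1.05) and Mrpl14 (-1.02) had the lowest values in wild type past the threshold, and the 2 that rose there were Mrps18b (0.72) and Mrpl33 (0.63).

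The non-member genes whose log2 CPM followed the members' mean most closely over the 12 libraries were the pseudogene Rpl14-ps1 (Pearson r = 0.97), the elongation factor subunit Eef1b2 (0.96), the respiratory-chain gene Cyc1 (0.95), the pseudogene Gm7536 (0.94) and the initiation factor subunit Eif3i (0.94). All points share the same libraries and scaling factors.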

How the data were processed

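The authors deposited whole-number read counts per gene for 12 libraries, made with a stranded total RNA kit per the labels' protocols; HTSeq, DESeq2 and the mm10 build appear, without roles, per the submitters' processing notes. Not given in the sources used here: the aligner, annotation release, strand setting and treatment of reads with several matches. Each group is 3 separate animals per the series' design text, and no batch is labelled. The files hold gene rows only. Of 49585 genes, 49326 matched GENCODE M21 (GRCm38), from which gene types, exons and transcripts came; RefSeq gave the start sites.

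Counts were filtered (filterByExpr), scaled (TMM) and fitted in 1 edgeR quasi-likelihood model (edgeR 4.0.16, R 4.3.3) with 4 group means, two-sided, Benjamini-Hochberg over 14329 genes, threshold 0.05; SEs and 95% intervals come from the same fit. The common biological coefficient of variation was 0.357, and 0.304 without C3. Alternatives were DESeq2 1.42.0, limma-voom (limma 3.58.1), RLE factors, plain library totals, scaling without the 50 most abundant genes, no filter, and leaving out each library; combinations with C3 left out, and scaling to the summed core members, were chosen after seeing the data. Levels per kilobase, transcript lengths, GC content and shared windows use the shortest APPRIS principal transcript. Whether that is the main form of each mRNA in these libraries was not tested. Intervals and the floor of 3 counts cover counting and replicate error as stated, not counting rules or the choice of scaling.

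Members, roles and lists were chosen with earlier results of these data known. Genes named were the 8 highest and 8 lowest in wild type, those called elsewhere, the 6 highest per kilobase, those below the filter, members with a set role, variant paralogs, up to 4 per further list, and the 5 most similar non-members. Others named by value (Rps29, Rpl7, Rps18, Rps27a in labelled knockout, non-overlapping members, Aamp, Bccip, Mrps18b, Mrpl33, Npm1 in labelled knockout, Eef1a1) were chosen after their values were seen. No score over the members was tested. Counts of members at an unadjusted p under 0.05 stand without the exact share of all genes at that level. The values of 3 members are not reported by name here, though they are in every count over the set.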

Additional observations from a re-analysis of the deposited data

How the results depend on the processing

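Across 26 alternative fits, 10659 single-gene values were compared with the reported ones: 10621 stayed on the same side of the threshold, 38 gained a call and 0 reversed a call, while 1551 changed sign without being called either way. In wild type, members called higher numbered 0 in the reported fit, 4 on plain library totals and 21 on plain totals without C3. Of all genes, 17.9%, 22.3% and 27.5% were called higher in these fits. The members' median log2 fold change was 0.264 on plain totals with and without C3. Members called lower numbered 1 (Rpl7l1) without C3 in wild type with TMM, DESeq2, limma-voom, RLE factors, scaling without the 50 most abundant genes, no low-count filter, and scaling to the summed core members, and 0 on plain totals. In labelled knockout 1 was lower without C3 with the first 5 of these, and 1 was higher on plain totals without C3 (Rpl13a). The members' median in labelled knockout was -0.285 without C3 and scaled without the 50 most abundant genes. Without C3, TMM called 16.6% of all genes lower in wild type and 10.5% in labelled knockout, where plain totals called 26.6% higher. Scaling to the summed core members without C3 called 32.3% and 26.2% in either direction. For the other fits without C3 named here, the share of all genes called is not given. Leaving out each library in turn gave 0 to 1 members called lower in wild type and 0 to 1 in labelled knockout; the library whose removal gave 1 was C3. The share of counts without the 50 most abundant genes was 9.07, 6.96, 8.90 and 7.32% in wild-type saline, wild-type cerulein, labelled-knockout saline and labelled-knockout cerulein libraries. In the same order, the 60S to 40S ratio by mean log2 CPM, without variant paralogs, was 0.740, 0.737, 0.745 and 0.734. The cause of these moves was not tested, beyond the change of denominator or of libraries itself. No paired analysis was possible because each animal's code stands in 1 group alone and what its letter marks (K in K4 and K5) is not stated. Depth limited Rpl24 and the 3 paralogs below the filter.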
